A study of Homo sapiens with 2 samples.

Results

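The unfolded protein response and the integrated stress response were examined through 34 genes, chosen by name as sensors, transcription factors, target enzymes, endoplasmic reticulum (ER) chaperones and degradation factors of these pathways, out of 17774 genes measured above the blank spots on both arrays. Every one of the 34 genes had at least 1 probe, 38 probes in all, and every member probe lay above the blank spots on both arrays. The study set cells that had received 2 Gy on each of 4 days (2 Gy x 4) against unirradiated cells (0 Gy). Both were MDA-MB-231, a widely used human cell line from a breast cancer without hormone receptors or HER2 amplification, kept on Matrigel in 3D laminin-rich extracellular matrix (lrECM). RNA of each culture was labelled with Cy5 and hybridised to 1 oligonucleotide chip, so there was 1 array per condition and 2 arrays in all. With no replicate there is no test, and every ratio below is the 2 Gy x 4 array over the 0 Gy array, a difference between these 2 cultures and arrays. In such bulk samples, fewer cells of a kind and less RNA per cell cannot be told apart. By the brightest probe of each gene, 6 markers of the line (VIM, CD44, EGFR, AXL, CAV1 and MSN) had spot intensities between 62.9 and 26732 on the irradiated array and between 70.1 and 28208 on the untreated array, with EGFR lowest and VIM highest, and the other 2 VIM probes were far dimmer. Of 6 luminal markers, ESR1 was at the level of the blank spots (13.3 irradiated, 13.4 untreated) and PGR near it, while CDH1 (155 and 179), FOXA1 (124 and 149), GATA3 (97.3 and 88.7) and ERBB3 (32.8 and 36.5) lay above the blanks on the same arrays, the first 3 of them above EGFR.

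The ER folds and modifies secreted and membrane proteins. When misfolded proteins build up there, 3 membrane sensors act: IRE1 (gene ERN1) splices the mRNA of the transcription factor XBP1, ATF6 is cut to release a transcription factor, and PERK (gene EIF2AK3) phosphorylates the initiation factor eIF2. Phosphorylation of eIF2, which GCN2 (gene EIF2AK4) also carries out when amino acids run short, slows translation in general while ATF4 is translated more, and ATF4 then switches on genes for amino acid supply and, through DDIT3 (CHOP), for cell death. Much of this control acts on protein and on splicing, and the arrays measured mRNA level only.

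The median gene probe had a spot intensity of 51.9 on the irradiated array and 57.9 on the untreated array, and 95% of the blank spots lay under 16.0 on the irradiated and 14.2 on the untreated array. Background was corrected by limma's normexp method (offset 50), quantiles of the arrays were made equal, and a gene's value is the mean log2 value of its probes. These are called the normalized values below, and because the irradiated array was dimmer as a whole, a gene of slightly lower spot intensity there can have a normalized ratio above 1. The authors' own value table, scaled to a median of 25 on each array, is given beside them. A size rule of 1.5-fold is used, with no test. In the normalized values 0.298% of all genes passed it upwards in irradiated cells and 1.0% downwards, or 0.563% and 1.89% of the genes brighter than the median. In the value table, where no offset pulls the ratios of dim genes towards 1, 3.97% passed upwards and 6.5% downwards. In genes measured by exactly 2 probes, the ratios of the probes differed by a median of 1.09-fold in the normalized values and 1.23-fold in the value table (2359 genes). The 90th percentile of these differences was 1.33-fold in the normalized values and 1.80-fold in the value table. Of the 34 members, 30 rested on 1 probe. The ratios also followed position. The median ratio of all probes was 0.935 in the last 26 columns of the chip and 1.02 elsewhere in the normalized values, and 0.841 and 1.08 in the value table. The part of position in the ratios below was not tested beyond the values given, in which the median ratio of probes within 11 rows and 8 columns was taken off each probe.

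Most genes of the unfolded protein and integrated stress responses had close to the same signal in irradiated and untreated cells. None of the 34 was at least 1.5-fold higher, beside 0.298% of all genes. ASNS and CEBPB, 2 of 34 (5.88%), were at least 1.5-fold lower, beside 1.0% of all genes and 1.89% of the brighter ones. The same 2 genes passed in the value table, where the background of 6.5% over all genes is close to their share. That background takes in the dim genes, and the share among brighter genes alone was not counted there. In the value table the middle range of ratios, defined further below, was 0.643 to 1.48 for brighter genes. For dimmer genes it was 0.490 to 1.73. ASNS (0.584) and CEBPB (0.579) lay below the range of the brighter genes, to which both belong. The median log2 ratio of the members was 0.081, against 0.014 over all genes, with 23 members above 1 and 11 below, beside 55.3% of all genes above 1. With the local trend across the chip taken off, 17 members lay above and 17 below 1, ASNS and CEBPB still passed, and 0.208% of all genes passed upwards and 0.439% downwards.

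**Figure D1:**
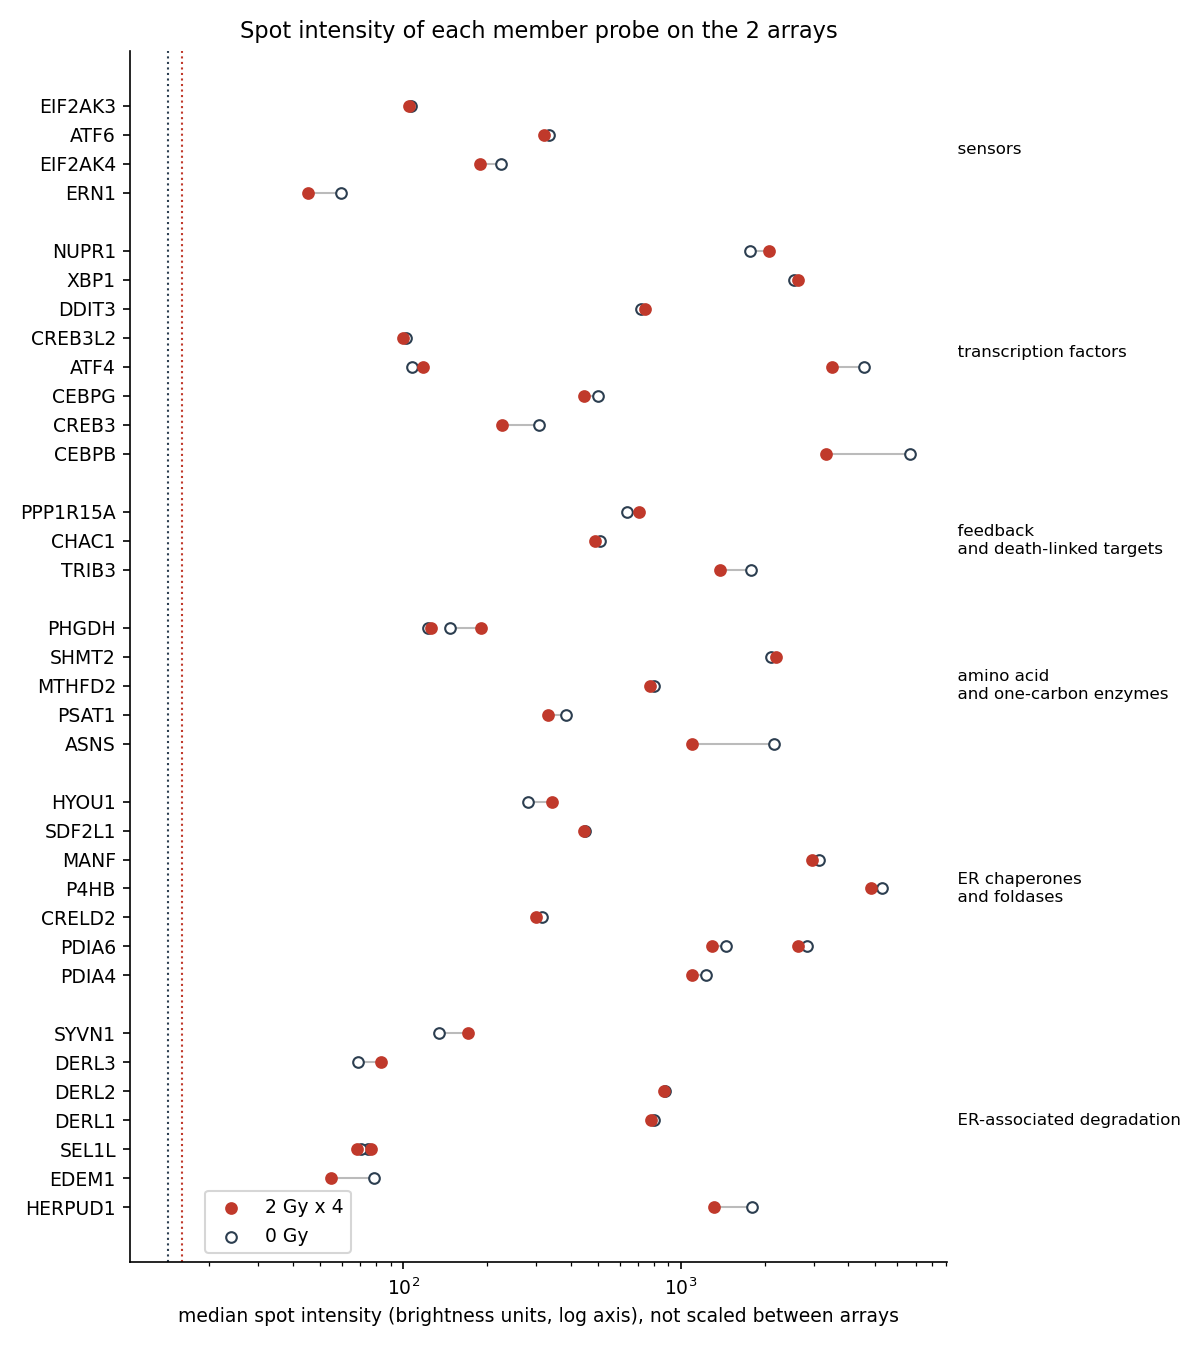
Median spot intensity (brightness units, log axis) of the 38 member probes on the 2 Gy x 4 array (filled) and the 0 Gy array (open), grouped by role, with a line joining the 2 values of a probe and, for each array, a dotted line at the 95th percentile of its blanks. All member probes lie to the right of the blank spots, from 45.4 to 4819.6 on the irradiated and 59.6 to 6645 on the untreated array, and ASNS and CEBPB show the widest gaps.

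ASNS, which encodes asparagine synthetase and is a classic target of ATF4, had a spot intensity of 1099 in irradiated and 2165 in untreated cells. Its normalized ratio was 0.565, lower than that of all but 0.231% of genes, and the value table gave 604 and 1034, a ratio of 0.584. The signal of ASNS was thus lower in irradiated cells in either set of values. Its only probe lay in column 99, among the last 26 columns, and the median ratio of the probes around it was 0.691 in the value table. Once that local trend was taken off, the ratio of ASNS was 0.652 in the normalized values and 0.845 in the value table. It passed 1.5-fold in the normalized values only, and 3.0% of all genes passed upwards and 3.66% downwards in the value table after this step.

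CEBPB encodes C/EBPβ, a leucine zipper transcription factor of inflammation and differentiation that can pair with ATF4 and CHOP. It had a spot intensity of 3331 in irradiated and 6645 in untreated cells, the brightest member probe on the untreated array. The normalized ratio was 0.567 and the value table gave 1845 and 3186, a ratio of 0.579. Its probe lay in column 76, outside the last 26 columns, where the surrounding probes had a median ratio of 0.921 in the value table. With the trend taken off, CEBPB had ratios of 0.582 and 0.629 in the 2 sets of values, both past 1.5-fold. The background read around this spot was 3416 on the irradiated array, above the spot itself, and 2571 on the untreated array. When that local background was subtracted first, the ratio of CEBPB was 0.0195 and that of ASNS 0.677, which is under 1.5-fold, and 2.77% of all genes passed upwards and 3.48% downwards. Over all gene probes the local background followed the spot intensity (Spearman correlation 0.909 on the irradiated and 0.928 on the untreated array).

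The stretches before the annotated starts of these genes are shown because the stress response acts through short sequences there. The RefSeq table of promoters (GRCh38.p14) held 30 of the 34 members, with none for DERL1, DERL3, SHMT2 and NUPR1. Where a gene had several annotated starts, the first by chromosome coordinate was kept, whatever the strand, and the others were not searched. For a gene on the minus strand, such as ASNS, this rule keeps the start furthest downstream. The 250 bases before the start were searched on both strands for 3 motifs: the C/EBP-ATF response element (CARE) TGATGNAA, known from ATF4 targets, the ER stress response element (ERSE), CCAAT and CCACG with 9 bases between, known to be bound by ATF6 with NF-Y, and the unfolded protein response element (UPRE) TGACGTGG, bound by XBP1 and ATF6. Capitals mark a match, and no match overlapped another. The first pair below, the 2 members at least 1.5-fold lower, held no match in this window. That says only that these letters are not in the 250 bases before the start that was kept. A match before another start of ASNS or CEBPB would have been missed. For ASNS it spans chr7:97872166-97872415 (minus strand) and for CEBPB chr20:50190333-50190582 (plus strand).
ASNS: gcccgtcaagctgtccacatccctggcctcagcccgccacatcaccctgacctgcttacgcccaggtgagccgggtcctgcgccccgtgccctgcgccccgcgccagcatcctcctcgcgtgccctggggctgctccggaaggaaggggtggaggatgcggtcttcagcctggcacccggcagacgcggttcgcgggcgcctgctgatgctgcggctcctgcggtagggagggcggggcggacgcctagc
CEBPB: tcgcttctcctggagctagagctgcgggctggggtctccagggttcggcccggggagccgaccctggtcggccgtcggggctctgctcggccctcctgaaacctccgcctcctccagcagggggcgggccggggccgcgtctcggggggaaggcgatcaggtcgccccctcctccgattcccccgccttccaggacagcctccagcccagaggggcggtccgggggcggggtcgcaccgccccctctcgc

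A match was found before 5 members, and these are shown with the bases around it so that their ratios can be read beside the motif. The CARE was found before CHAC1 (chr15:40953237-40953294, plus strand) and HERPUD1 (chr16:56931941-56931998, plus strand), in 2 of 30 members and 3.26% of 27305 promoters. The ERSE was found before CRELD2 (chr22:49918529-49918597, plus strand) and PDIA6 (chr2:10812828-10812896, minus strand), in 2 of 30 members and 0.0806% of promoters. The UPRE was found before HYOU1 (chr11:119057361-119057418, minus strand), in 1 of 30 members and 0.648% of promoters. The matches before CHAC1, HERPUD1 and CRELD2 are on the opposite strand, so the reverse complement of the motif is in capitals there.
CHAC1, CARE: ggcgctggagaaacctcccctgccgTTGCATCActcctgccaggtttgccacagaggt
HERPUD1, CARE: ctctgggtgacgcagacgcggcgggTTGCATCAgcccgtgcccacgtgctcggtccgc
CRELD2, ERSE: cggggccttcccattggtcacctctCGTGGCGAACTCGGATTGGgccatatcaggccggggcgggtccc
PDIA6, ERSE: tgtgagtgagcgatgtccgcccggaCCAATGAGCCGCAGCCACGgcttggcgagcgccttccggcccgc
HYOU1, UPRE: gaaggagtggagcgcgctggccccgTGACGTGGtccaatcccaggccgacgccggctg
The normalized ratios of these genes did not run one way: HYOU1 stood at 1.28, CHAC1 at 1.05, CRELD2 at 1.02, PDIA6 at 1.0 and HERPUD1 at 0.815.

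The 4 sensors had ratios near 1. EIF2AK3 (PERK) had a spot intensity of 105 in irradiated and 106 in untreated cells, a normalized ratio of 1.07. ATF6 had 320.5 in irradiated and 334 in untreated cells, a ratio of 1.04. EIF2AK4 (GCN2) had 188 and 224 on the same arrays, a ratio of 0.930. ERN1 (IRE1) was the dimmest member, with 45.4 in irradiated and 59.6 in untreated cells. Its ratio was 0.910 in the normalized values and 0.774 in the value table, and it stayed below 1 in every setting that measured it. The sensors had a median log2 ratio of -0.023, with 2 above and 2 below 1, and with the local trend taken off all 4 lay below 1, between 0.908 and 0.995.

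Of the 8 transcription factors, 5 had a normalized ratio above 1, 3 below, and only CEBPB passed 1.5-fold. ATF4, the central factor of the integrated stress response, was measured by 2 probes that lay on opposite sides of 1. The bright probe had a spot intensity of 3489 in irradiated and 4561 in untreated cells, a ratio of 0.871, while the dim probe had 118 and 108, a ratio of 1.15. Their mean gave ATF4 a ratio of 1.0, and with the brightest probe alone it would be 0.871. The local background of the dim probe was as bright as the spot, at 118 on the irradiated and 119 on the untreated array.

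DDIT3 (CHOP), the ATF4 target that promotes cell death under lasting stress, had a spot intensity of 742 in irradiated and 714 in untreated cells. Its ratio was 1.13 in the normalized values and 1.20 in the value table, and it stayed above 1 in each setting. XBP1, whose spliced form drives ER chaperone and degradation genes, had 2642 in irradiated and 2547 in untreated cells, a ratio of 1.16. With the trend taken off, XBP1 had a ratio of 1.07 in the normalized values and 0.980 in the value table, and with local background subtracted 0.819. The arrays did not tell the spliced from the unspliced form.

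NUPR1, a small stress-induced chromatin protein, had the highest ratio of the transcription factor group. Its spot intensity was 2063 in irradiated and 1774 in untreated cells, with ratios of 1.28 in the normalized values and 1.35 in the value table, under 1.5-fold in both, but 0.818 with local background subtracted. CREB3, an ER-bound factor processed much as ATF6 is, had 227 in irradiated and 307 in untreated cells, a ratio of 0.830 that stayed below 1 in each setting. CREB3L2, a relative of CREB3 known for its role in secretory cells, stood at 1.06, and CEBPG, a partner of ATF4, at 0.996.

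**Figure D2:**
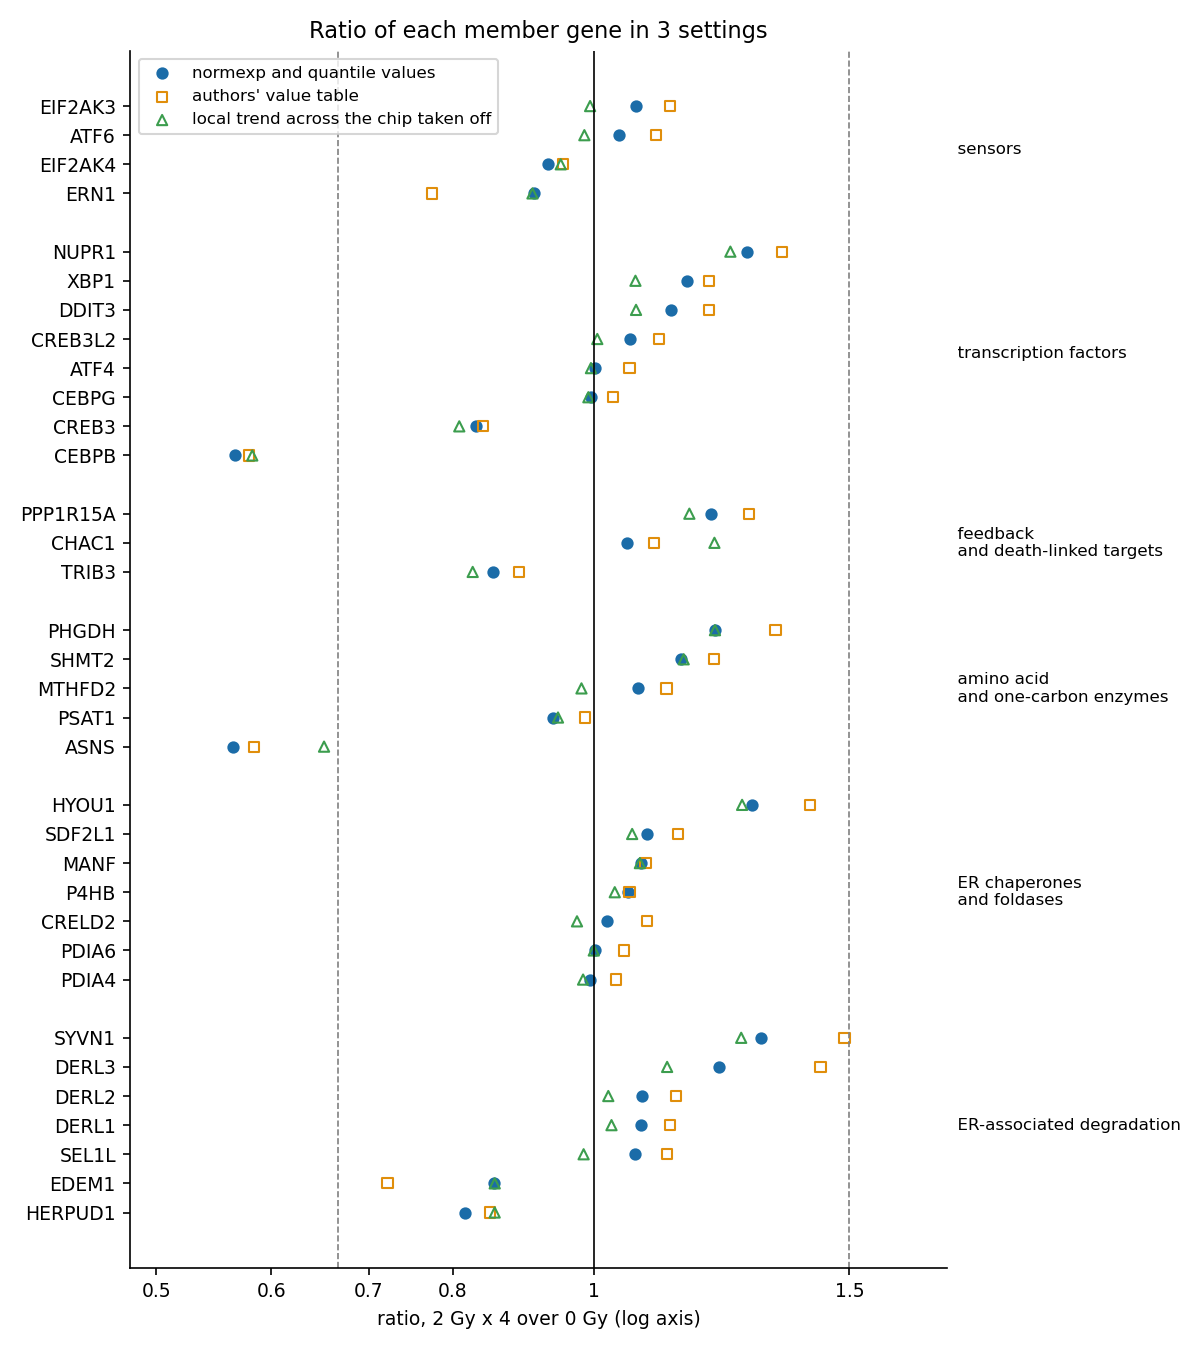
Ratio of the 34 members, 2 Gy x 4 over 0 Gy (log axis), in the normalized values (circles), the authors' value table (squares) and the normalized values with the local trend across the chip taken off (triangles), with dashed lines at 1.5-fold either way. ASNS and CEBPB lie past the lower line in all 3 settings, and the highest, SYVN1, reaches 1.30 in the normalized values and 1.49 in the value table.

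The feedback and death-linked targets of ATF4 and CHOP lay on both sides of 1. PPP1R15A encodes GADD34, which brings a phosphatase to eIF2 and ends the response, and had a spot intensity of 702 in irradiated and 636 in untreated cells, a ratio of 1.21. Its local background on the irradiated array was 697, nearly that of the spot, and the ratio was 0.429 once local background was subtracted. TRIB3, a pseudokinase induced by CHOP, had 1378 in irradiated and 1790.4 in untreated cells, a ratio of 0.852 that stayed below 1 in each setting. CHAC1, which breaks down glutathione and is among the most inducible ATF4 targets, had 488 in irradiated and 512 in untreated cells, a ratio of 1.05. The CHAC1 probe lay in column 91, where the surrounding probes had a median ratio of 0.704 in the value table. With that trend taken off, CHAC1 had a ratio of 1.21 in the normalized values and 1.56 in the value table, where the step made it the only member at least 1.5-fold higher.

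Among the enzymes of amino acid and one-carbon supply, ASNS was the only one past 1.5-fold. PHGDH, the first enzyme of serine synthesis, had 2 probes, both above 1. One had a spot intensity of 189.7 in irradiated and 147 in untreated cells, with a normalized ratio of 1.33 and 1.51 in the value table. The other had 126 in irradiated and 122 in untreated cells, with ratios of 1.11 and 1.18. The gene stood at 1.21 in the normalized values and 1.33 in the value table, and above 1 in each setting.

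The later enzymes of the route had ratios closer to 1. PSAT1, the next enzyme of serine synthesis, had 331 in irradiated and 384 in untreated cells, a ratio of 0.938. SHMT2, the mitochondrial enzyme that turns serine into glycine, had 2198 and 2102 on the same arrays, a ratio of 1.15. MTHFD2, its partner in mitochondrial folate metabolism, had 773 in irradiated and 796 in untreated cells, a ratio of 1.07. The group of 5 had a median log2 ratio of 0.10, and -0.028 with the local trend taken off.

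The ER chaperones and foldases had ratios close together, and P4HB, MANF and PDIA6 were among the brightest members. P4HB, a disulphide isomerase, had a spot intensity of 4819.6 in irradiated and 5271 in untreated cells, a ratio of 1.06. The disulphide isomerase PDIA4 had 1099 in irradiated and 1224 in untreated cells, a ratio of 0.995. PDIA6, of the same family, had ratios of 0.978 and 1.03 by its 2 probes, of which the platform annotation gives the second to ATP6V1C2 and the scanner file to PDIA6. MANF, a secreted ER stress protein, had 2949 in irradiated and 3144 in untreated cells, a ratio of 1.08. SDF2L1, which works with the chaperone BiP, had a ratio of 1.09, and CRELD2, another ER stress-induced protein, one of 1.02.

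HYOU1 stood somewhat apart from the other chaperones. It encodes an ER relative of the heat shock 70 proteins that acts as an exchange factor for BiP, and had a spot intensity of 342 in irradiated and 282 in untreated cells. The ratio was 1.28 in the normalized values and 1.41 in the value table, and between 1.13 and 1.41 over all alternatives. In the value table all 7 chaperones and foldases lay above 1, beside 55.7% of all genes. In the normalized values 6 of 7 did, beside 55.3% of all genes, with a median log2 ratio of 0.079. Median scaling put P4HB at 0.987 and PDIA6 at 0.980 and left 4 of 7 above 1, beside 11293 of 17774 genes. With the local trend taken off, 5 of 7 lay above 1 in the normalized values and 4 of 7 in the value table.

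Genes of ER-associated degradation, which carry misfolded proteins out to the proteasome, lay on both sides of 1. SYVN1 encodes HRD1, the ubiquitin ligase of this machinery, and had the highest normalized ratio of all members, followed by HYOU1 and NUPR1. Its spot intensity was 171 in irradiated and 134 in untreated cells, with ratios of 1.30 in the normalized values and 1.49 in the value table. In each setting SYVN1 lay between 1.26 and 1.49, above 1 and under 1.5-fold. DERL3, a member of the derlin family of membrane proteins, had 83.3 in irradiated and 68.5 in untreated cells, with ratios of 1.22 and 1.43. Its probe lay in column 2, where surrounding probes had a median ratio of 1.23 in the value table, and with that trend taken off the ratios were 1.12 and 1.16, while local background subtraction gave 0.982.

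The partner of HRD1, SEL1L, had spot intensities of 76.2 and 68.3 by its 2 probes in irradiated cells and 74.9 and 70.3 in untreated cells, and a ratio of 1.07. DERL1 had a ratio of 1.08, from 777 in irradiated and 796 in untreated cells, and DERL2 one of 1.08, from 866 and 878. HERPUD1, a membrane protein of the HRD1 complex that ER stress strongly induces in many cells, had 1318 in irradiated and 1793 in untreated cells, a ratio of 0.815. EDEM1, a lectin that hands glycoproteins to degradation, had 55.0 in irradiated and 78.7 in untreated cells, a ratio of 0.855. Both probes were in column 86, near the right edge, and with the trend taken off HERPUD1 and EDEM1 each had a ratio of 0.855, which left EDEM1 unchanged. In the value table after that step, HERPUD1 had 0.935 and EDEM1 0.728. Local background subtraction gave 0.983 for HERPUD1 and 1.001 for EDEM1. The 7 degradation genes had a median log2 ratio of 0.11, with 5 above 1 and 2 below. With the local trend taken off, 4 lay above 1 (median 0.034), and in the value table after that step 3 did (median -0.018). Local background subtraction left 2 above 1 (median -0.026), so the group had no settled direction.

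**Figure D3:**
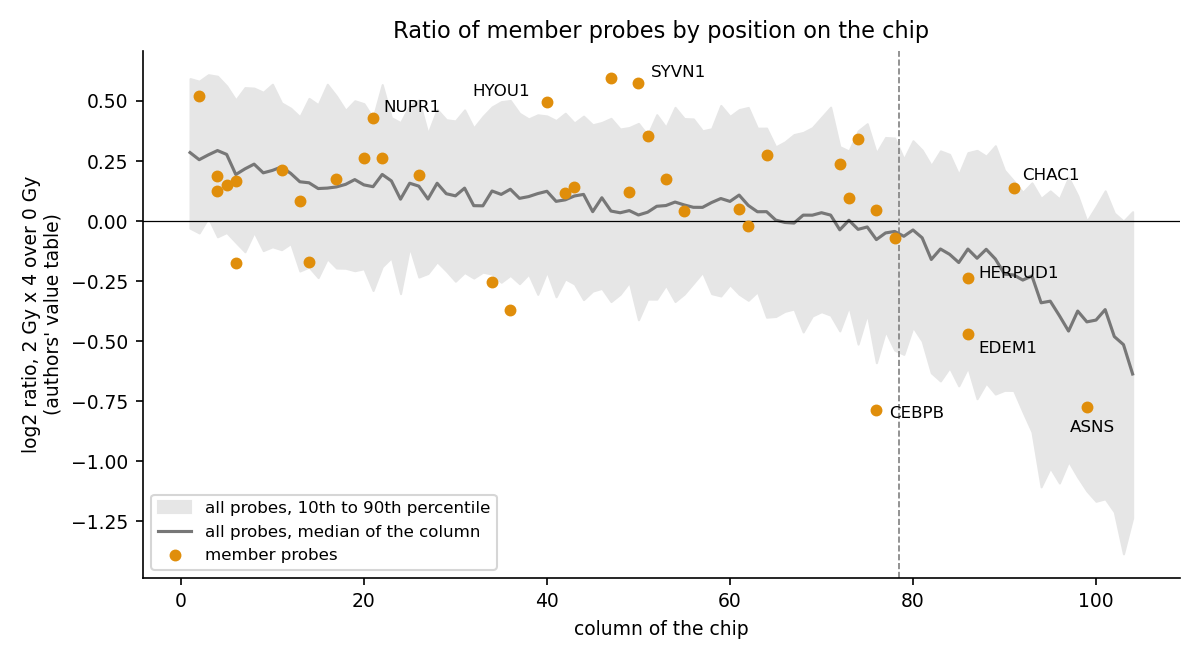
Log2 ratio of the 38 member probes (2 Gy x 4 over 0 Gy, authors' value table) against their column on the chip, over the median (line) and the 10th to 90th percentile (band) of all probes of each column, with a dashed line at the start of the last 26 columns. The median falls along the chip from left to right, so that ASNS in column 99 lies within the band while CEBPB in column 76 lies below it.

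Below 1 in every setting tried were 6 members, ASNS, CEBPB, HERPUD1, CREB3, TRIB3 and ERN1. Above 1 in every setting were 7 members, SYVN1, HYOU1, PHGDH, DDIT3, SDF2L1, MANF and CHAC1. The share of all genes that keep to one side of 1 was not counted, so these counts have no background beside them. Some of these members came close to 1, such as MANF at 1.01 and ERN1 at 0.992. Some of these settings could not change a member's ratio, as is described with the processing. With local background subtracted, PDIA6 (3.17), DDIT3 (1.92) and SDF2L1 (1.53) passed 1.5-fold upwards, and PPP1R15A, DERL1 (0.551), CREB3 (0.660) and MTHFD2 (0.665) passed downwards beside CEBPB. For PDIA6, the probe that the platform annotation gives to ATP6V1C2 had an untreated local background of 2742, near its spot intensity of 2848. The genes that kept to one side came from several branches, with HERPUD1 and TRIB3 below 1 and SYVN1 and DDIT3 above. Among genes brighter than the median, the middle 95% of ratios ran between 0.690 and 1.33 in the normalized values and between 0.643 and 1.48 in the value table. Of the 31 members in that class, ASNS and CEBPB lay below the range in both and SYVN1 above it in the value table only. The 3 dimmer members, ERN1, EDEM1 and SEL1L, lay within the range of the dimmer genes.

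**Figure D4:**
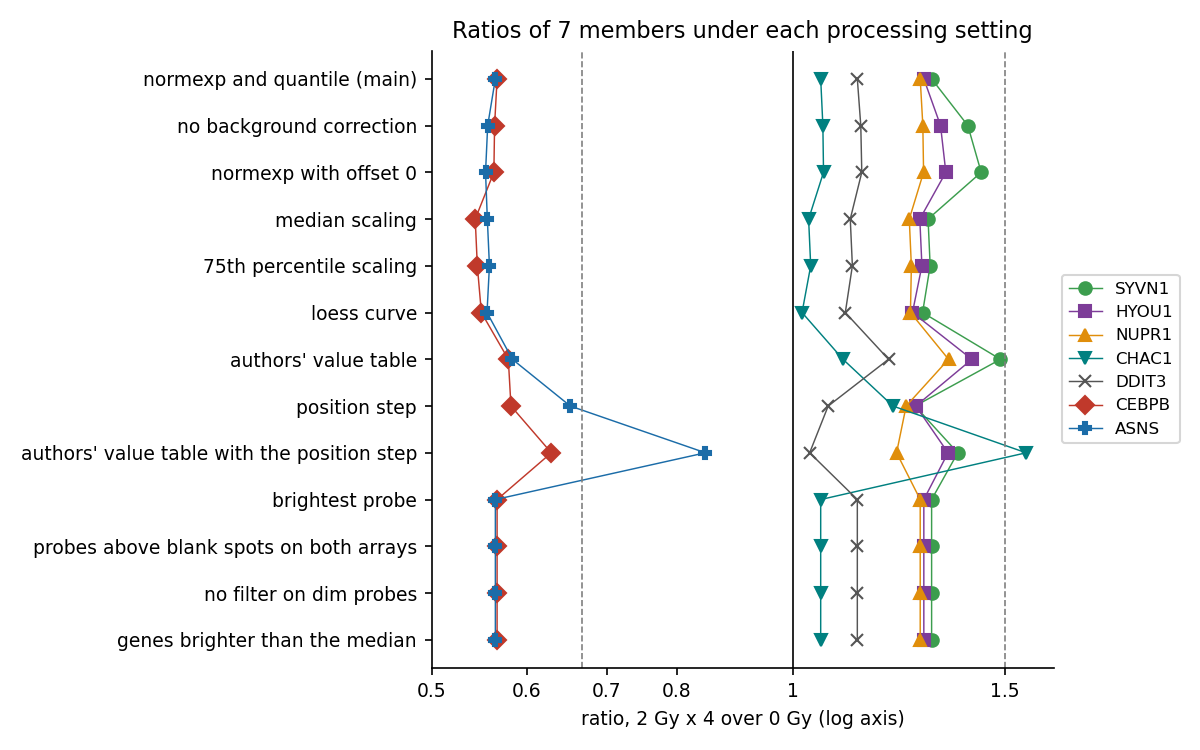
Ratio of 7 members, 2 Gy x 4 over 0 Gy (log axis), in the normalized values and 12 of the 13 alternatives (local background subtraction, where CEBPB had 0.0195, is left off), with dashed lines at 1.5-fold either way. CEBPB stays between 0.544 and 0.629, while ASNS moves to 0.845 and CHAC1 to 1.56 in the value table with the local trend taken off.

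Other genes of the same pathways were read from lists of named genes. Of 25 other ER chaperones and folding enzymes, 13 lay above 1, none was at least 1.5-fold higher and 1 was at least 1.5-fold lower, with a median log2 ratio of 0.013. The lower one was PDIA3 (ERp57), a disulphide isomerase for glycoproteins, at 0.654 in the normalized values and 0.667, just short of 1.5-fold, in the value table. With the local trend taken off, PDIA3 had 0.704 and no gene of the list passed. The main chaperones HSPA5 (BiP) and HSP90B1 (GRP94) stood at 1.10 and 1.09, and at 1.01 and 1.05 with the local trend taken off. Of 18 measured other degradation genes, 15 lay above 1, with a median log2 ratio of 0.17. With the local trend taken off 13 did (median 0.13), and with local background subtracted 10 did (median 0.065). In the normalized values 1 gene of this list was at least 1.5-fold lower. This was NPLOC4, a cofactor of the segregase VCP, with ratios of 0.601 in the normalized values and 0.594 in the value table, and 0.626 with the local trend taken off the normalized values. Of 22 other genes of eIF2 and ATF4 signalling, none passed 1.5-fold, with a median log2 ratio of 0.032 and SESN2, a stress-induced inhibitor of mTORC1, highest at 1.37.

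The remaining amino acid genes are set beside the 55.3% of all genes above 1. Of 18 measured transporters and synthesis enzymes, 14 lay above 1, with a median log2 ratio of 0.093. SLC7A1, a transporter of cationic amino acids, was just under 1.5-fold at 1.49 in the normalized values and stood at 1.68 in the value table and 1.36 with the local trend taken off. SLC7A5, the large neutral amino acid transporter, had 1.32. Of 20 cytosolic aminoacyl-tRNA synthetases, many of them ATF4 targets as ASNS is, 13 lay above 1, with a median log2 ratio of 0.11, none passed 1.5-fold, and WARS1 was highest at 1.35.

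**Figure D5:**
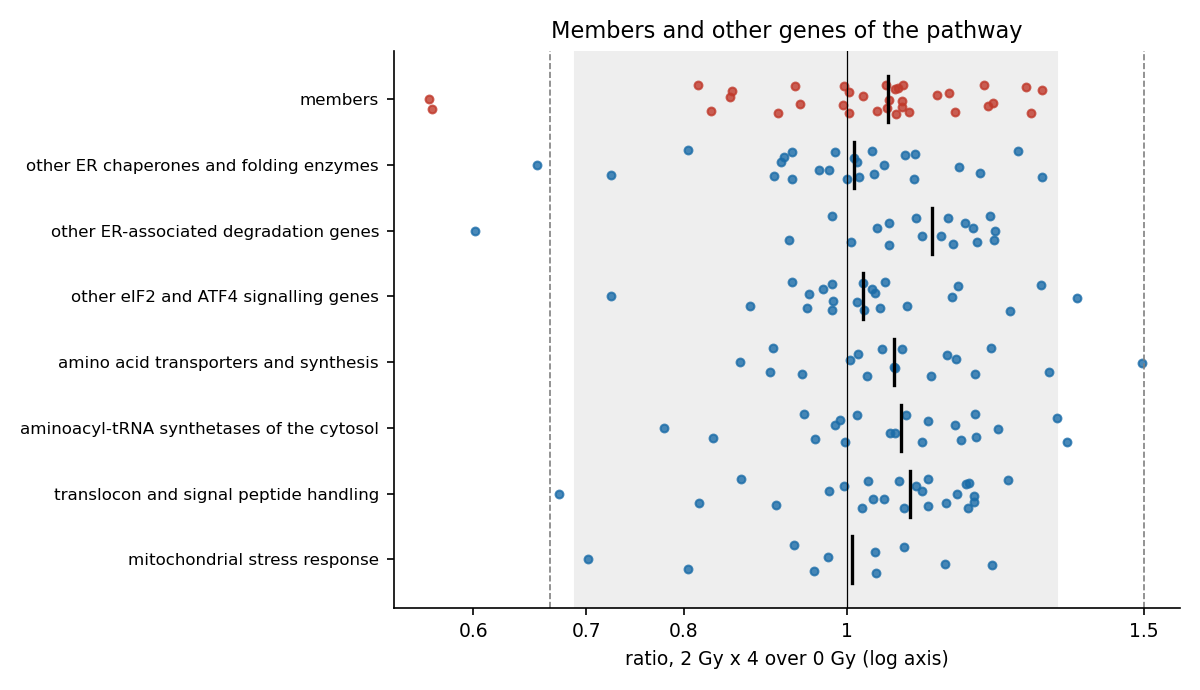
Ratio, 2 Gy x 4 over 0 Gy (log axis, normalized values), of each member (top row) and each gene of 7 lists of other pathway genes, 1 point a gene, with a bar at the median of a list, a grey band for the middle 95% of all genes brighter than the median (0.690 to 1.33) and dashed lines at 1.5-fold. ASNS and CEBPB, at 0.565 and 0.567, are the lowest points, and the list medians lie between 1.01 and 1.12.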

How the data were processed

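One array of irradiated and one of untreated MDA-MB-231 cells were compared. Per the file headers, the deposited scanner files hold the median spot intensity at 635 nm, with no background subtraction or scaling. The authors' table of processed intensities was recovered by subtracting from each spot a mean of blank spots (their central 90%) and scaling to a median of 25, within 0.487% on the irradiated and 0.410% on the untreated array for values above 10.

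Probes marked poor were left out, leaving 24456. Values were normexp-corrected (offset 50) and quantile-normalized in limma 3.58.1 (R 4.3.3). These steps, at offsets 50 and 0, were tested on simulated data that held no position trend. A probe counted as measured above the 95th percentile of 2678 blank spots, and a gene where a probe did so on both arrays. Gene symbols are those of the platform annotation (current through RefSeq, GRCh38.p14) or else of the scanner file, for 22660 probes. A probe was given to a member by its name in the scanner file, current or former. The tables were made with pandas 2.3.3 and numpy 2.4.6 in Python 3.11.15. Calls are a size rule of 1.5-fold, with no test; the number of arrays limits the precision. Members, lists and settings were chosen with earlier results of these data known. All members are given. Other pathway genes were to be named where at least 1.5-fold in both sets of values, which only NPLOC4 was, and HSPA5, HSP90B1, PDIA3, SESN2, SLC7A1, SLC7A5, WARS1, DDOST, SSR4, CLPX and DNAJA3 were named after their values were seen. The 13 alternatives changed the background step, scaling, source of values, position step, probe choice or filter.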

Additional observations from a re-analysis of the deposited data

How the results depend on the processing

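Of the 13 alternatives, 11 left the counts of members at least 1.5-fold higher and lower at 0 and 2. Some of these could not have changed them. Every member probe lay above the blanks on both arrays, so neither change of that filter moved a member. The set of brighter genes reused the normalized ratios. The choice of the brightest probe could move only the 4 members with 2 probes, not ASNS or CEBPB. In the value table with the local trend taken off the counts were 1 (CHAC1) and 1 (CEBPB). With local background subtracted they were 3 (PDIA6 at 3.17, DDIT3 at 1.92 and SDF2L1 at 1.53) and 5 (CEBPB, PPP1R15A at 0.429, DERL1 at 0.551, CREB3 at 0.660 and MTHFD2 at 0.665). A PDIA6 probe had an untreated local background nearly as bright as its spot. No member at least 1.5-fold lower turned above 1. The median log2 ratio of the members ran from -0.007 to 0.141, within 0.1 of the 0.081 given above in every alternative. Members on the other side of 1 numbered 15 with local background subtracted, 12 in the value table with the trend taken off, 7 with the trend taken off the normalized values and at most 3 in any other. Over all genes, 53 passed upwards and 178 downwards. These became 706 and 1156 in the value table, 534 and 651 there with the trend taken off, 492 and 618 with local background subtracted, 406 and 823 at offset 0, 142 and 427 with the background left in, and 78 downwards with the trend taken off the normalized values. With 1 array a group, no array could be left out. No paired analysis was possible because each group holds 1 sample and the result comes from no test. Offset 50 pulls ratios of dim members such as ERN1 and EDEM1 towards 1.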

Other observations

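Genes that bring proteins into the ER were read as a neighbouring group. Of 24 measured genes of the translocon and signal peptide handling, 18 had a normalized ratio above 1, with a median log2 ratio of 0.12, beside 55.3% of all genes above 1, and none passed 1.5-fold. With the local trend taken off, 16 lay above 1 (median 0.064), and 13 in the value table after that step (median 0.036). DDOST, a subunit of the oligosaccharyltransferase, had the highest ratio at 1.25, and SSR4, a subunit of the translocon-associated protein complex, the lowest at 0.674, or 0.773 with the local trend taken off. Of 10 genes of the mitochondrial stress response, 5 lay above 1 and none passed 1.5-fold. They ran between DNAJA3, a mitochondrial co-chaperone, at 0.702 and CLPX, the unfolding subunit of a matrix protease, at 1.22. With the local trend taken off, DNAJA3 had 0.832 and was no longer the lowest, and the list ran between 0.790 and 1.16.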
